A study of Mus musculus with 20 samples.

Results

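Slc19a2 encodes thiamine transporter 1, a plasma membrane carrier that takes up thiamine (vitamin B1). The gene was chosen by its measured difference of 100 µM H2O2 from untreated, the largest among the genes called higher there, and it is 1 of 8159 genes with a tested probe set and exactly 1 symbol. It is read by 2 probe sets of the 14379 tested, 1417902_at and 1426117_a_at. The values that chose it are therefore given below as a description, with no test.

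The samples were myotubes of C2C12, an established mouse myoblast line whose cells fuse into myotubes in low serum. After 96 h of differentiation they received H2O2 for 2 h in DMEM with 0.5% heat-inactivated horse serum, at 0 (untreated), 1, 10, 100 or 1000 µM. Each RNA was read on 1 Affymetrix oligonucleotide array (Mouse Genome 430A), with 4 arrays per dose and 20 in all. All groups share 1 cell line and 1 time point, and the untreated group received the same medium without H2O2.

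Mammalian cells cannot make thiamine and depend on carriers of the SLC19 family for it. Inside the cell, thiamine is turned into thiamine diphosphate, the cofactor of transketolase in the pentose phosphate pathway and of the mitochondrial pyruvate, 2-oxoglutarate and branched-chain 2-oxoacid dehydrogenases. Loss of SLC19A2 in humans causes thiamine-responsive megaloblastic anaemia, and in mouse cells the gene is known as a target of the transcription factor p53. H2O2 is an oxidant that damages DNA and protein thiols.

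Each of the 15 myotube markers looked at, Myog and Ckm among them, reached the filter level on every array, and the summed myotube signal was 87869.6 to 100739.8 on untreated arrays, 103430.9 to 107264.1 at 1 µM, 96671.4 to 122375.8 at 10 µM, 101851.4 to 110332.9 at 100 µM and 104986.7 to 115329.6 at 1000 µM. Of 5 leukocyte markers on the array, 0 reached the filter level on all arrays, and Ptprc, Cd3e and Cd68 reached it on none. Of the markers of cycling cells, 7 of 7 reached it on all arrays. Their summed signal was 7173.9 to 8385.1 untreated, 8165.3 to 9108.2 at 1 µM and 8196.7 to 8909.7 at 10 µM. At 100 µM it was 6971.1 to 7325.2 and at 1000 µM 7309.4 to 8003.7, so every array at 1000 µM lay below every array at 1 and 10 µM. Of 5 markers of reserve and satellite cells 4 reached it on all arrays and Pax7 on none, and of 7 fibroblast and matrix markers 4 did, with Thy1 and Lum on none. Whether these markers bear on Slc19a2 was not tested. In such bulk samples, fewer cells of a type and less RNA per cell cannot be told apart. The filter level is the 40th percentile of the array, 77.7 to 106.5 signal units, and only probe sets at or above it on 4 or more arrays entered the tests.

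In the RefSeq annotation of GRCm38.p6, Slc19a2 spans chr1:164249046-164265385 on the plus strand, 16340 bases with 2 transcripts. The 300 bases around its start are shown because they are the region in which the letters of stress-response motifs were looked for. They run 250 bases before to 50 bases after the annotated start, at chr1:164248796-164249095 on the plus strand, and capitals mark the CCAAT boxes and GC boxes.

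Slc19a2 promoter: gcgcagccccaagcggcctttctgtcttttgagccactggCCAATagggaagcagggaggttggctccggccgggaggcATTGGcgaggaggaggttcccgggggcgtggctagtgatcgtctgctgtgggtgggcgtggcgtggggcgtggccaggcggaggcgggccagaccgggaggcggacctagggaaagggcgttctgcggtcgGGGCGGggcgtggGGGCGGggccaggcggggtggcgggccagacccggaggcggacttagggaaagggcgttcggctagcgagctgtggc

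The CCAAT box (CCAAT) occurs 2 times, beginning at bases -210 and -171 from the start, the latter on the minus strand (ATTGG). The GC box (GGGCGG) occurs 2 times, at -40 and -27. Both motifs are common, and on either strand the first is found in 37.4% and the second in 35.7% of 32851 RefSeq promoter windows of the same length. The p53 consensus decamer had no match in this window on either strand, and 8.36% of all windows hold it. The antioxidant response element core (TGACNNNGC), in 12.4% of windows, the AP-1 site (TGANTCA), in 7.81%, the C/EBP-ATF response element core (TGATGNAA), in 3.97%, and the TATA box (TATAAA), in 13.6%, also had no match. The motifs found did not overlap each other. The window is rich in G and C, at 72.0% against a median of 52.7% over all windows, and 93.1% of windows have a lower share. Its ratio of observed to expected CpG was 0.82, against a median of 0.38. A match of letters is a description and not a site of binding, and no match says only that these letters are not in this window.

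Slc19a2 RNA was level from 0 to 10 µM H2O2 and stood several-fold higher at 100 and 1000 µM, with the higher of these levels at 100 µM. Signals below are the deposited linear signals of an array, in arbitrary units, replicates 1 to 4 in order. With probe set 1417902_at, the brighter one, which stands for the gene in what follows, untreated arrays gave 354.1, 284.1, 281.8 and 350.0 (mean 317.5 ± 39.9, SD, n = 4). At 1 µM the arrays gave 308.3, 225.8, 280.6 and 244.5 (264.8 ± 36.9). At 10 µM they gave 334.6, 287.4, 356.2 and 258.2 (309.1 ± 44.5). These 3 groups overlap one another. At 100 µM the arrays gave 1886.8, 1391.5, 1139.1 and 1275.0 (1423.1 ± 326). At 1000 µM they gave 1136.7, 877.9, 870.0 and 953.1 (959.4 ± 124). Every array at 100 or 1000 µM stood above every array of the lower doses, and every array at 1000 µM stood below every array at 100 µM, though the nearest 2 differ by little, with a ratio of 0.998.

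The order of the mean levels was thus 100, 1000, 0, 10 and 1 µM. The last 3 of these lay within each other's spread.

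The dimmer probe set 1426117_a_at moved the same way. Untreated arrays gave 82.8, 83.8, 64.1 and 69.0 (74.9 ± 9.88, SD, n = 4), arrays at 1 µM gave 79.7, 68.8, 46.4 and 98.3 (73.3 ± 21.7), and arrays at 10 µM gave 89.6, 77.4, 77.9 and 79.6 (81.1 ± 5.73). Arrays at 100 µM gave 596.3, 363.5, 362.7 and 362.4 (421.2 ± 117) and arrays at 1000 µM gave 295.6, 203.2, 275.9 and 209.6 (246.1 ± 46.6). The doses fell into the same 2 levels, with no overlap between them. This probe set reached the filter level on 0 of 4 untreated arrays, 1 of 4 at 1 µM, 2 of 4 at 10 µM, and 4 of 4 at each of 100 and 1000 µM, so it passed the filter through the doses where it was high, and its low-dose values are less exact than those of the brighter probe set.

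**Figure D1:**
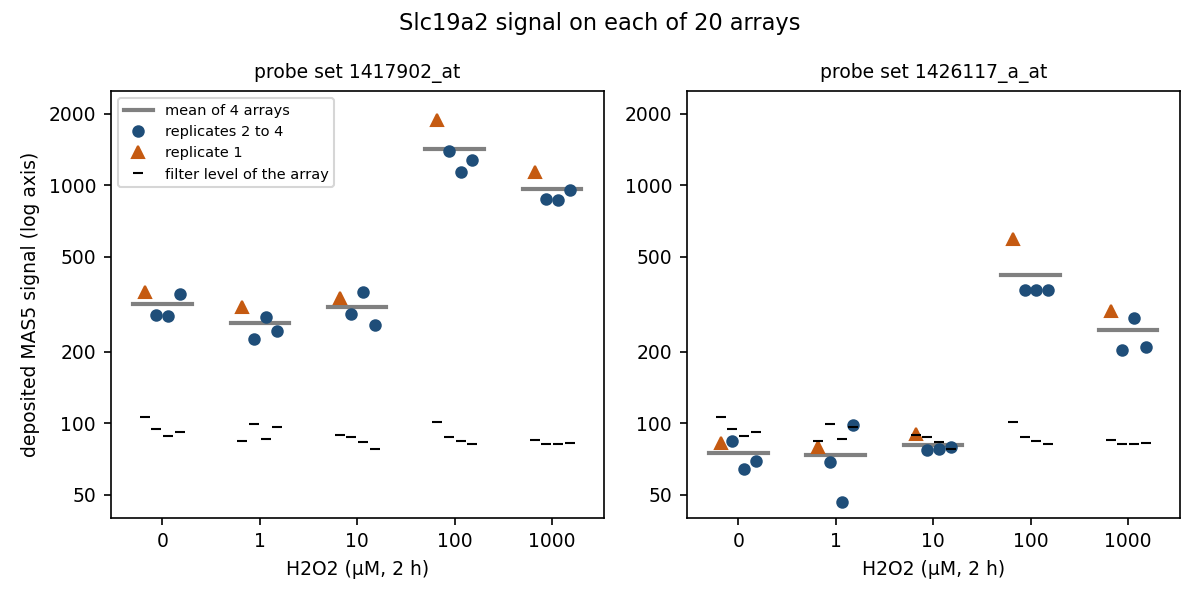
Deposited signal of Slc19a2 (log axis, arbitrary units) against H2O2 dose (µM), 1 panel for each of the 2 probe sets; each point is 1 array, triangles are replicate 1, grey lines are the means of 4 arrays and short black dashes the filter level of each array. The arrays at 100 and 1000 µM stand above all others in both panels, and 1426117_a_at lies near the filter level at the lower doses.

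Fitted on the log2 scale, the difference of 100 µM from untreated was 2.15 (SE 0.15), a 4.43-fold higher level, for 1417902_at and 2.46 (SE 0.21), 5.52-fold, for 1426117_a_at. The genes next in order among the called rises were Atf3, a stress-induced transcription factor, at 1.98 (SE 0.44), whose call was lost in 5 of 30 other fits, Hmox1, haem oxygenase 1, at 1.96 (SE 0.13) and Osgin1, an oxidative stress-induced growth inhibitor, at 1.93 (SE 0.24). These distances from Slc19a2 are of the size of the SEs. A call here is an adjusted p under 0.05 (limma, Benjamini-Hochberg), and 0.993% of the 8159 genes were called higher at 100 µM, 81 in number, and 0.404% lower. At 1000 µM the difference from untreated was 1.60 (SE 0.15), 3.02-fold, for 1417902_at and 1.71 (SE 0.21) for 1426117_a_at. Among 215 genes called higher there, 2.64% of all, its difference ranked 14. The difference of 1000 from 100 µM was -0.55 (SE 0.15), a ratio of 0.683, and -0.76 (SE 0.21) with the other probe set. The differences of 1 and 10 µM from untreated were -0.26 and -0.04 (SE 0.15). All of these share arrays with the contrast that chose the gene and carry no test.

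The study's own rule compared each treated array with each untreated array and asked for the same direction in every pair and an average change above 1.75. With the deposited signals of 1417902_at, 16 of 16 pairs were higher at 100 µM, with ratios of 3.22 to 6.70 and a mean of 4.54. At 1000 µM, 16 of 16 pairs were higher, with ratios of 2.46 to 4.03 and a mean of 3.06. At 1 µM, 2 of 16 pairs were higher, and at 10 µM 8 of 16. The software's difference calls were not used here.

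The difference between high and low doses could also be taken between arrays that the choice of the gene did not use. Slc19a2 was higher at 1000 µM than at 1 and 10 µM together, by 1.75 on the log2 scale (SE 0.13, 3.36-fold), with all 4 arrays above all 8 (limma adjusted p = 1.33e-08 over 14379 probe sets). The 95% interval of this difference was 1.48 to 2.02. Its spread was estimated from all 20 arrays, those that chose the gene included, and a fit of the 3 groups compared alone gave the same difference with a limma adjusted p of 7.8e-07. The exact two-sided permutation test over these 12 arrays gave p = 0.00404, the smallest that its 495 assignments allow. Probe set 1426117_a_at differed by 1.68 (SE 0.18, 3.21-fold), given without a test because it passed the filter through the doses where it was high. In this contrast 2.98% of tested probe sets were called higher. Among the 254 genes called higher, Slc19a2 ranked 11 by the size of its difference.

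From 1 to 10 µM no difference was called. The estimate was 0.22 (SE 0.15), with a 95% interval of -0.09 to 0.53 (limma adjusted p = 1), and the exact two-sided permutation test over 8 arrays gave p = 0.2, where 0.0286 is the smallest its 70 assignments allow. With 1426117_a_at it was 0.20 (SE 0.21). In this contrast 0% of the 14379 probe sets were called with limma, and 477 had an unadjusted p under 0.05.

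The array named replicate 1 gave a higher Slc19a2 level than the mean of the other 3 arrays at each of the 5 doses, by 0.17 to 0.58 on the log2 scale with 1417902_at and by 0.20 to 0.72 with 1426117_a_at. Its part in the differences was measured by leaving those arrays out. Among replicates 2 to 4, the 1417902_at difference was 2.06 at 100 µM, 1.57 at 1000 µM and 1.72 for 1000 against 1 and 10 µM (limma adjusted p = 9.19e-09). The median log2 signal of an array was also lower at 1000 µM than on untreated arrays, by -0.20, and by -0.07 to -0.10 at the other doses. With each array centred on its median instead, the Slc19a2 difference was 2.22 at 100 µM and 1.80 at 1000 µM.

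The genes whose dose profile lay nearest to that of Slc19a2 were found by the root mean square distance between their 4 log2 differences from untreated and its own, over 8158 other genes. The median distance was 1.372 and 6 genes lay within 0.5. These genes were chosen for their likeness, so their values are a description, and all profiles come from the same 20 arrays and the same untreated group. Hmox1, the enzyme that breaks down haem, was nearest, at a distance of 0.126, below the 0.21 that separates the 2 Slc19a2 probe sets. Its mean signals were 410.6, 357.7, 408.5, 1593.5 and 1127.4 from 0 to 1000 µM, and its differences were -0.19, -0.01, 1.96 and 1.45. Like Slc19a2, it was level up to 10 µM, highest at 100 µM and lower again at 1000 µM. Hmox1 remained the nearest gene in each of the 30 other fits that gave a profile, at distances of 0.071 to 0.202. Some of these could not change the distance. Median centring shifts all genes alike, and a fit without the intensity trend or with a term for the arrays numbered 1 leaves the differences as they are.

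Osgin1 followed at 0.310, with differences of 1.93 at 100 µM and 1.28 at 1000 µM. The chemokine Ccl2 (0.350) had 1.84 and 2.21, and 1 of its 4 untreated arrays reached the filter level. Ddit4l, an inhibitor of mTOR signalling (0.391), had 1.63 and 1.18, though none of its untreated arrays reached the filter level. The Ddit4l call was lost in 7 of 29 other fits at 100 µM and in 16 of 29 at 1000 µM. Trp53inp1, a p53-induced nuclear protein (0.421), had 1.69 and 0.93. Sesn2, sestrin 2, a stress-induced inhibitor of mTOR signalling (0.482), had 1.63 and 0.86. Mdm2, the ubiquitin ligase that degrades p53 (0.501), had 1.33 and 1.01, and Btg2, an antiproliferative p53 target (0.515), had 1.19 and 1.49. In 6 of these 8 the difference was smaller at 1000 than at 100 µM, as in Slc19a2, while Ccl2 and Btg2 stood higher at 1000 µM. Second probe sets did not all follow these values: that of Btg2 differed by 1.26 at 100 µM and 1.00 at 1000 µM, the opposite order, that of Trp53inp1 by 1.45 and 0.35, and that of Sesn2 by 1.96 and 0.55. The values of the second Mdm2 probe set were 1.74 and 1.29.

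**Figure D2:**
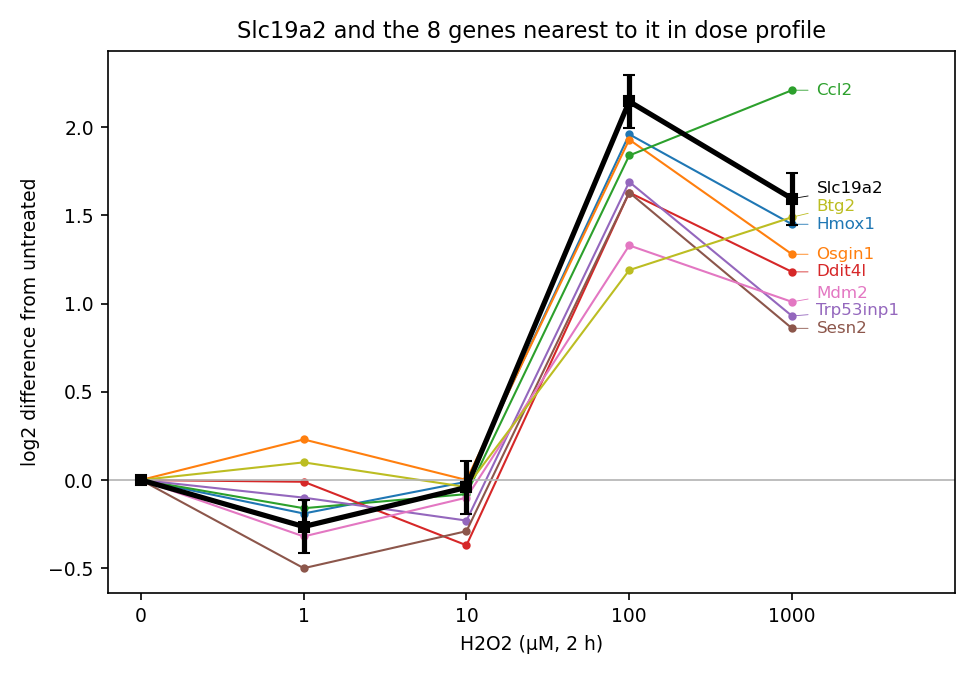
Log2 difference from untreated against H2O2 dose (µM) for Slc19a2 (black, bars are SE) and the 8 genes nearest to it by root mean square distance. All 9 lie between -0.50 and 0.23 at 1 and 10 µM and at 1.19 or above at 100 µM. With the probe sets drawn, Ccl2 and Btg2 stand higher at 1000 than at 100 µM, and a second Btg2 probe set has the opposite order.

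By Pearson's r over the 5 dose means, among genes whose means span at least 1 on the log2 scale, the highest were Hmox1 (0.9999), Mdm2 (0.9975), Ddit3, a stress-induced transcription factor (0.9838), Sesn2 (0.9824) and Tnfsf9, a cytokine of the TNF family (0.9808). Only the first 2 were above 0.99. With 5 points that fall into 2 levels, such values describe the step and little else. Ddit3 had smaller differences, 1.12 at 100 µM and 0.58 at 1000 µM, and Tnfsf9 had 0.83 and 0.52. Within doses, after the dose mean was taken out, Hmox1 and Slc19a2 had r = -0.21 over the 20 arrays, whose values share 1 scaling. The 2 probe sets of Slc19a2 had r = 0.36 over the 20 arrays, where all genes ran from -0.70 to 0.70 between their 5th and 95th percentiles. Over the 15 arrays numbered 2 to 4, the 2 probe sets had r = -0.32 and Hmox1 -0.35. All genes ran from -0.57 to 0.64 there, between the same percentiles.

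Among other genes of thiamine transport and use and of related pathways, Pdk4 rose at 100 µM, Tkt and Slc2a1 rose at 1000 µM, and Ogdh and Slc23a2 fell there. Of 55 genes in 5 lists, 40 have a probe set of their own on the array and 30 were tested. At 100 µM, 1 of the 30 rose and 0 fell, at a median difference of 0.03 beside -0.02 over all genes, of which 0.993% were called higher and 0.404% lower. With 30 genes, such counts do not set the lists apart from all genes. At 1000 µM, 2 rose and 2 fell, with a median of -0.03 beside -0.05, where 2.64% of all genes were called higher and 8.05% lower. With each array centred on its median, 4 rose (Dlst, Pdk1, Slc2a1 and Tkt) and 0 fell at 1000 µM, and with quantile normalization 1 rose and 0 fell. At an unadjusted p under 0.05 in limma, 3 were higher and 3 lower at 100 µM, and 2 were higher and 5 lower at 1000 µM. At 1 and at 10 µM 0 of the 30 were called by limma, with 2 and 1 at an unadjusted p under 0.05. Over all genes 0% and 0.0123% were called there. Of all 8159 genes, 539, 407, 941 and 2037 had an unadjusted p under 0.05 in limma at 1, 10, 100 and 1000 µM.

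Of the other carriers and enzymes that move or activate thiamine, Slc19a3, thiamine transporter 2, reached no more than a signal of 36 on any array and was not tested. Slc47a1, an exporter of organic cations, was also filtered out. Thtpa, thiamine triphosphatase, differed by 0.14 (SE 0.14, limma adjusted p = 0.778) at 100 µM and by -0.26 (SE 0.14, limma adjusted p = 0.229) at 1000 µM. Slc44a4, a carrier of thiamine pyrophosphate in human colon cells, differed by 0.27 and -0.23 (SE 0.30) and was not called.

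Among 10 tested thiamine diphosphate enzymes and subunits of their complexes, 0 were called at 100 µM by limma, with 1 at an unadjusted p under 0.05. At 1000 µM Tkt, transketolase, rose by 0.40 (SE 0.13, limma adjusted p = 0.0479) with 1 of its 2 probe sets, and differed by 0.01 with the other. Its arrays gave 846.1, 1064, 1029.5 and 1073.5 untreated and 1201.7, 1261.7, 1573.5 and 1250 at 1000 µM, with no overlap. Ogdh, the first subunit of the 2-oxoglutarate dehydrogenase, fell by 0.29 (SE 0.08, limma adjusted p = 0.0297), and with median centring its difference was -0.08 (limma adjusted p = 0.613). The pyruvate dehydrogenase subunits Pdha1 and Pdhb differed by 0.04 and -0.01 at 100 µM and by -0.01 each at 1000 µM (SE 0.07 and 0.09).

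Pdk4, the kinase that switches off pyruvate dehydrogenase, was the 1 gene of the 30 that rose at 100 µM, by 0.72 (SE 0.09, limma adjusted p = 0.000116). Its arrays gave 581.4, 647.5, 613.4 and 631.1 untreated, 981.3, 995.6, 1055.6 and 1038 at 100 µM, and 565.1, 659.8, 653.8 and 730.5 at 1000 µM. The 100 µM arrays stood above all the others, and those at 1000 µM overlapped the untreated ones, with a difference of 0.07 (SE 0.09, limma adjusted p = 0.687). The call at 100 µM held in all 31 alternative fits. Of the other 4 kinases tested, Pdk1, Pdk2, Pdk3 and Bckdk, 0 were called at either dose by limma, and 0 had an unadjusted p under 0.05.

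In the pentose phosphate pathway, 0 of 6 tested genes were called at 100 or 1000 µM by limma, with 2 and 1 at an unadjusted p under 0.05. Pgd, 6-phosphogluconate dehydrogenase, differed by 0.44 at 100 µM (SE 0.12, limma adjusted p = 0.0764) with its brightest probe set, and by 0.38 to 0.51 with its other 3. With the replicate block, and with replicates 2 to 4 alone, the brightest was called as well. Of the other 3, 2 were called (limma adjusted p = 0.00126 and 0.00919). G6pdx has no probe set of its own here. Among carriers of other water-soluble vitamins, the folate carrier Slc19a1, of the same family as Slc19a2, differed by -0.09 at 100 µM and -0.13 at 1000 µM (SE 0.25, limma adjusted p = 0.937 and 0.789). Slc2a1, a glucose carrier that also takes dehydroascorbate, rose by 0.47 at 1000 µM (SE 0.14, limma adjusted p = 0.0333). At 100 µM it differed by 0.23 with this probe set (limma adjusted p = 0.597) and by 0.57 with another (limma adjusted p = 0.0342). Slc23a2, an ascorbate carrier, fell by 0.30 (SE 0.09, limma adjusted p = 0.036), and by median centring differed by -0.10 (limma adjusted p = 0.425). The calls of Tkt, Ogdh, Slc2a1 and Slc23a2 at 1000 µM were kept in 8, 15, 14 and 14 of the 20 fits that leave out 1 array.

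**Figure D3:**
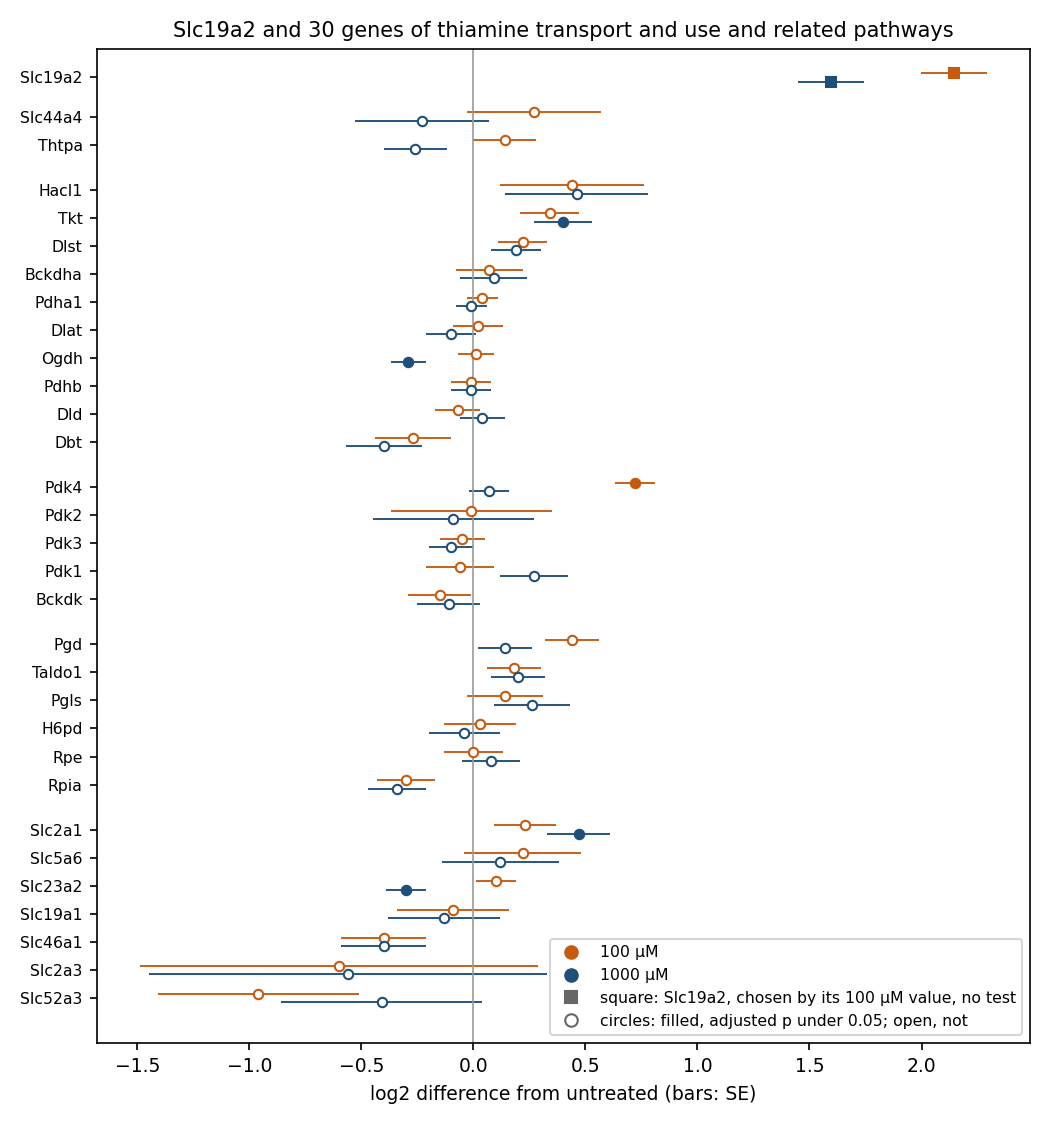
Log2 difference from untreated (x axis, bars are SE) at 100 µM (orange) and 1000 µM (blue) for Slc19a2 (squares, no test) and the 30 tested genes of the 5 lists (circles, filled where the adjusted p is under 0.05). Pdk4 at 100 µM and Tkt, Ogdh, Slc2a1 and Slc23a2 at 1000 µM are filled, all of them at smaller differences than those of Slc19a2. Slc19a2 was chosen by its 100 µM value, and its 1000 µM value uses the same untreated arrays.

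Known p53 targets were set beside Slc19a2 because it belongs to them in mouse cells; this list was chosen with earlier results of these data known and is no independent evidence of its direction. Of 36 genes, 31 have a probe set of their own and 27 were tested. At 100 µM 14 rose and 0 fell, with a median of 0.59 beside -0.02 for all genes, and 0.993% of all genes were called higher. At 1000 µM 9 rose and 0 fell, with a median of 0.20 beside -0.05 and 2.64% of all genes called higher. All 9 were among the 14 called at 100 µM. With 1 array left out, the calls kept least often at 100 µM were Gadd45a (4 of 20 fits) and Zmat3 (8 of 20). At 1000 µM it was that of Ccng1 (9 of 20). At an unadjusted p under 0.05 in limma, 20 were higher and 0 lower at 100 µM, and 11 were higher and 3 lower at 1000 µM. At 1 and 10 µM 0 were called by limma, with 7 and 6 at an unadjusted p under 0.05, of which 6 and 4 were lower. Of all 8159 genes, 539, 407, 941 and 2037 had such a p in either direction at 1, 10, 100 and 1000 µM.

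The largest differences of the list at 100 µM were those of Trp53inp1 (1.69, SE 0.13, limma adjusted p = 3.75e-08), Sesn2 (1.63, SE 0.21, limma adjusted p = 9.36e-05), Mdm2 (1.33, SE 0.13, limma adjusted p = 1.9e-06) and Btg2 (1.19, SE 0.15, limma adjusted p = 9.36e-05). The second probe sets of Trp53inp1 and Sesn2 were not called at 1000 µM (limma adjusted p = 0.52 and 0.0783). At 1000 µM the largest were those of Btg2 (1.49, SE 0.15, limma adjusted p = 2.58e-06), Psrc1, a microtubule-binding protein (1.22, SE 0.13, limma adjusted p = 3.01e-06), Plk2, a stress-responsive kinase (1.07, SE 0.09, limma adjusted p = 1.42e-07), and Mdm2 (1.01, SE 0.13, limma adjusted p = 2.48e-05). In the reported fit, the difference of Slc19a2 was larger than that of each of the 27 at both doses. At 100 µM this follows from its choice. At 1000 µM the order is not independent of that choice either, because the same untreated arrays were used. There Slc19a2 (1.60, SE 0.15) and Btg2 (1.49, SE 0.15) differed by less than either SE. Btg2 ran from 1.42 to 1.69 over 30 other fits, and Slc19a2 from 1.51 to 1.65 with 1 array left out. Their order at 1000 µM was thus not settled. Mdm2 gave 1365.2, 1320, 1200.4 and 1314.8 untreated, 4055.7, 3131.1, 2956.8 and 3057.4 at 100 µM and 2930.4, 2494.4, 2643 and 2446.3 at 1000 µM. As with Slc19a2, every array at 1000 µM lay between the untreated arrays and those at 100 µM. Cdkn1a, the cell cycle inhibitor p21, differed by 0.39 at 100 µM (SE 0.11, limma adjusted p = 0.0984) and 0.20 at 1000 µM (SE 0.11, limma adjusted p = 0.248). It was called at 100 µM in 5 of 11 other settings, the replicate block and the fit of replicates 2 to 4 alone among them, and in 1 of 11 at 1000 µM. Of the 27, 22 had a smaller difference at 1000 than at 100 µM, as Slc19a2 did. Over all genes the difference of 1000 from 100 µM had a median of -0.03, with 3.62% called lower and 0.76% higher by limma. The share of all genes with a smaller difference at 1000 µM was not counted, so the 22 are a description.

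**Figure D4:**
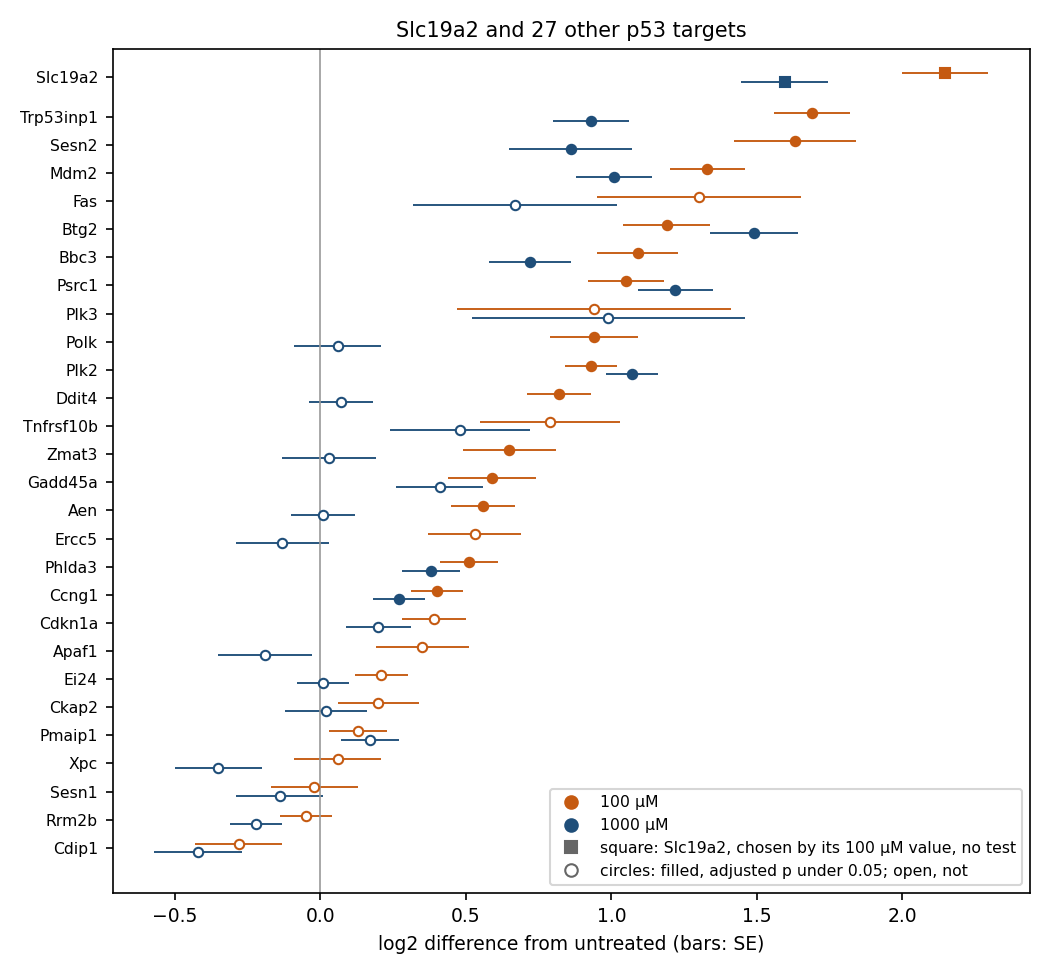
Log2 difference from untreated (x axis, bars are SE) at 100 µM (orange) and 1000 µM (blue) for Slc19a2 (squares, no test) and 27 tested p53 targets (circles, filled where the adjusted p is under 0.05). Slc19a2 lies to the right of all 27 at both doses, though its bar and that of Btg2 overlap at 1000 µM. Of the 27, 14 are filled at 100 µM and 9 at 1000 µM. Slc19a2 was chosen by its 100 µM value, and its 1000 µM value uses the same untreated arrays.

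The genes next to Slc19a2 on chromosome 1 were looked at after its own values had been seen. Blzf1 differed by 0.06 at 100 µM and -0.12 at 1000 µM (SE 0.15, limma adjusted p = 0.932 and 0.679), and Nme7 by -0.06 and 0.02 (SE 0.11, limma adjusted p = 0.898 and 0.942). Selp and F5 were filtered out, and Ccdc181 has no probe set of its own. Neither of the 2 tested neighbours was called at a dose where Slc19a2 was high.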

How the data were processed

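The authors' deposited values are intensity summaries, 1 linear signal per probe set and array, made with Affymetrix Microarray Suite 5.0 (MAS5), per the labels' design text and the submitters' processing notes. The 2% trimmed mean of each array was 500.1 to 500.2, so the values carry a global scaling; array medians ran from 150.9 to 185.2. An aligner or build of the array annotation is not given in the sources used here. Arrays have no read depth, and 4 arrays per dose limit the precision. Groups came from sample titles. A 10 µM array without a number is called replicate 1, and a misspelt unit of the lowest dose was read as µM. No source says that the replicates were separate cultures, so the p-values cover the spread between these arrays alone, and that spread may be technical.

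Signals were scaled to 1 common trimmed mean, floored at 1 and put on the log2 scale. Of 22690 probe sets, 64 controls were left out and 8247 fell below the filter. The 5 groups entered 1 fit in limma 3.58.1 (R 4.3.3; lmFit, then eBayes with its trend option; 15 residual degrees of freedom and 5.33 from the prior; two-sided tests, Benjamini-Hochberg over all tested probe sets in a comparison). The script was tested on simulated data. Exact permutation tests used SciPy 1.17.1. Where a gene has several tested probe sets, the brightest on average stands for it; symbols came from the platform annotation, in which 20393 probe sets have 1 symbol, 691 several and 1606 none. Promoter sequence is RefSeq's (GRCm38.p6).

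The text names all Slc19a2 probe sets, the 3 next called rises at 100 µM, the 8 nearest genes, the 5 most correlated genes, the list members called or of largest difference, and the 4 p53 targets with the largest called difference at each high dose. Some list members are not reported here. The gene and all lists were chosen with earlier results of these data known. Alternatives covered scaling, filter, floor, variance model, array weights, batch terms, left-out arrays, the samples in the fit and the other probe set. Same-numbered arrays did not deviate together in every pair, so replicate numbers were not taken to pair samples. Those numbered 1 did deviate together, at r = 0.462 to 0.514 in 6 pairs, and those numbered 2 to 4 had r = 0.01 to 0.261. The reported fit has no term for the arrays numbered 1. Such a term took in 1 array of every dose, with the unnumbered one that the 6 pairs leave out, so it could not change the differences. With it the difference of 1000 from 1 and 10 µM was 1.75 (SE 0.09, limma adjusted p = 3.46e-11).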

Additional observations from a re-analysis of the deposited data

Results flagged for a closer look

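In groups of 4 arrays, a value far from the other 3 was looked for in 135 groups from 27 probe sets, and 15 were found; chance gives about 1 in 20 groups. Of the 15, 11 came from arrays named replicate 1. Slc19a2 probe set 1426117_a_at gave 596.3 on replicate 1 at 100 µM, far above the 362.4 to 363.5 of the other 3 arrays; without replicate 1 of every dose, the difference at 100 µM of the other probe set was 2.06. High values also came from Mdm2 at 10 µM replicate 1 (1462.3), Tnfsf9 untreated replicate 2 (305.0), Psrc1 at 1000 µM replicate 1 (804.5), Slc2a1 at 1 µM and at 1000 µM replicate 1 (1315.9 and 1945.1), Slc23a2 untreated replicate 1 (741.7) and Slc19a1 at 1000 µM replicate 1 (334.1). Low values came from Ccl2 at 1000 µM replicate 1 (248.6), Trp53inp1 at 10 µM replicate 4 (420.7), Ddit3 at 1000 µM replicate 1 (464.0), Tkt at 1 µM replicate 2 (738.3), Pgd at 100 µM replicate 1 (1981.2), Slc44a4 at 1000 µM replicate 1 (75.5) and Nme7 at 1 µM replicate 3 (379.6). The cause of these values was not tested.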

How the results depend on the processing

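The call of Slc19a2 at 1000 against 1 and 10 µM was kept in all 33 alternatives. These include the other probe set, whose call is no support because it passed the filter through the doses where it was high. Many of the 33 could not change the difference of 1.75, only its SE or p. Such were the other filters and floor, the fit without the intensity trend and the term for the arrays numbered 1. So were the fit of the groups compared alone, the permutation test, and the fits without 1 untreated or 100 µM array. The difference was 1.65 to 1.87 under other settings. With 1 array left out it was 1.66 to 1.79 (limma adjusted p from 4.86e-09 to 2.74e-07). The 10 against 1 µM difference stayed uncalled in all 33, at 0.20 to 0.28 and 0.15 to 0.31. With 1 array left out, the difference at 100 µM was 2.00 to 2.25, at 1000 µM 1.51 to 1.65, and between them -0.65 to -0.41; the other probe set gave 2.46 at 100 µM. With the replicate block, which leaves out the unnumbered array, the tested differences were 1.72 (limma adjusted p = 3.02e-09) and 0.27 (limma adjusted p = 0.993). Deviations correlated at 0.462 to 0.514 among arrays numbered 1 and at 0.01 to 0.261 among same-numbered arrays of numbers 2 to 4. Of 19 arrays, 4 correlated best with their own number. No called difference followed across the fits reversed in direction; of those printed and not called that were followed, those of Slc44a4 at 1000 µM (-0.40 to 0.27), Slc19a1 at 100 µM (-0.27 to 0.14) and 1000 µM (-0.28 to 0.09), Blzf1 at 100 µM (-0.05 to 0.18) and 1000 µM (-0.21 to 0.09) and Nme7 at 100 µM (-0.10 to 0.02) and 1000 µM (-0.02 to 0.22) changed sign. The Atf3 call at 100 µM was lost in 5 of 30 fits, each without 1 untreated or 100 µM array (limma adjusted p up to 0.111). Counts of called thiamine genes moved. At 100 µM (1 reported) they were 3 with array weights or a term for the arrays numbered 1, 2 with the replicate block or replicates 2 to 4 alone, and 1 to 2 with an array left out, at 2 without 1 µM replicate 2 or 100 µM replicate 1. At 1000 µM (4 reported) they were 6 with array weights or a term for the arrays numbered 1, 5 with the replicate block, 1 with quantile normalization or only the groups compared, 2 without a filter or with replicates 2 to 4 alone, and 0 to 4 with an array left out, at 0 without untreated replicate 2 or 4 or 1000 µM replicate 2, at 1 without untreated replicate 3 or 1000 µM replicate 4, and at 2 without untreated replicate 1 or 1000 µM replicate 1 or 3. Called p53 targets at 1000 µM (9 reported) numbered 14 with array weights, 7 with quantile normalization and 7 to 10 with an array left out. At 100 µM (14 reported) they numbered 11 to 15 with an array left out and 11 to 20 under other settings. The cause of these shifts was not tested.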
